A study of Mus musculus with 69 samples.

Results

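The MHC class II presentation genes were followed in mouse lung after instillation of nano-TiO2. They are 10 genes listed by symbol for their role, not by a threshold on their values: H2-Aa, H2-Ab1 and H2-Eb1 (classical class II chains), H2-DMa, H2-DMb1, H2-Oa and H2-Ob (peptide editing), Cd74 (invariant chain), Ctss (cathepsin S) and Ciita (the class II transactivator). Probes were assigned through their accession to RefSeq symbols, which gave 13 probes for 9 of the 10 genes out of 41174 probes and 18660 tested genes. H2-Eb1 matched no probe and is named only. The study compared the lungs of female C57BL/6 mice, obtained at 5 to 7 weeks of age, on day 1 or day 28 after NRCWE-025 or NRCWE-030, 2 nanomaterials (NMs), had been instilled once into the trachea. Each NM was given at 18, 54 or 162 µg in water with 2% serum, and the controls received that vehicle. Each of the 69 arrays held RNA from a piece of the lung of 1 mouse against the same commercial reference RNA. There were 5 arrays per group, with 4 for NRCWE-025 at 162 µg on day 28, and both NMs were set against the same 5 controls of each day. No genotype or transgene was compared, and all mice, controls included, had been instilled.

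Class II molecules carry peptides from the endosome to the cell surface, where they are read by CD4+ T cells. The alpha and beta chains are assembled with the invariant chain Cd74, which cathepsin S cuts down to a short fragment in the groove. The H2-DM heterodimer exchanges that fragment for other peptides, and the H2-O heterodimer, found mainly in B cells, restrains H2-DM. Ciita, the transactivator, is recruited to a conserved promoter module of class II genes through factors bound at its X and Y boxes, and interferon gamma induces it in many cells. In lung the genes are known from B cells, dendritic cells, macrophages and alveolar type 2 cells. C57BL/6 mice make no E alpha chain, so their only classical class II molecule is H2-A.

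RefSeq promoters (assembly GRCm38.p6) were available for 7 of the 10 genes. They are shown for 5 of them because H2-Oa and H2-DMb1 carry the dose results below, H2-Ob is the partner of H2-Oa, H2-Aa is a classical chain, and Ctss lies apart from the class II cluster. The 120 bases before the start site are given 5′ to 3′ on the gene's strand. Capitals mark GATTGG, the core of the Y box (an inverted CCAAT box), and AACNNNTGA, a string within the X box. The second string was chosen after these sequences had been read, and both strands were searched.
H2-Oa, chr17:34092259-34092378, plus strand: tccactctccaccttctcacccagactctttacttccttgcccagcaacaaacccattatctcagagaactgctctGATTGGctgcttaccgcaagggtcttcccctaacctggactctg
H2-Ob, chr17:34238785-34238904, plus strand: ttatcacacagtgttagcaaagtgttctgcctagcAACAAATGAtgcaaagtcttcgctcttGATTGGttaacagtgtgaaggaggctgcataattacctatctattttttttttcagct
H2-DMb1, chr17:34153071-34153190, plus strand: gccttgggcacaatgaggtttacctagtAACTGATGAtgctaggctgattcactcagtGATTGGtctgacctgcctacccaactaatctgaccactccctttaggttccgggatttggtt
H2-Aa, chr17:34287824-34287943, minus strand: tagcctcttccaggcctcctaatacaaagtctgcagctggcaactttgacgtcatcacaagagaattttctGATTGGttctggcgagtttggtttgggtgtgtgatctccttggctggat
Ctss, chr3:95526666-95526785, plus strand: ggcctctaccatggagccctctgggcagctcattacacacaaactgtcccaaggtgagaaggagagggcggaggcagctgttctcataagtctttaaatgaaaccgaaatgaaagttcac
Within 250 bases before a start, GATTGG was found in 6 of the 7 genes, all but Ctss, and in 14.6% of the 32851 promoters in the table. AACNNNTGA was found in H2-Eb1, H2-DMb1 and H2-Ob, and in 10.1% of all promoters. In H2-Ob it began 85 bases and the GATTGG 58 bases before the start, in H2-DMb1 92 and 62, and in H2-Eb1 89 and 60; both strings were found in 1.36% of all promoters. For H2-DMa the GATTGG lay at 1 of its 2 annotated starts, 199 bases before it. These are matches of letters, not shown binding sites.

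All values are log2 ratios of lung (Cy5) to reference (Cy3) after background correction and loess, and a gene was called at an adjusted p under 0.05 over all 18660 genes (limma). In the lung channel 49.1% to 72.8% of spots exceeded background, depending on the array. Of the 13 probes, 12 were above background on all 69 arrays, and that of H2-Ob on 64. H2-DMa, H2-Oa, H2-Ob, Cd74, Ctss and Ciita had 1 probe each, of 1 spot per array. In the reference channel H2-Ob was above background on 1 array, 1 of the 2 H2-Aa probes on 36 and the only Ciita probe on 61. Those ratios rest on a dim denominator, for Ciita on some arrays. The lung cell markers Sftpc, Scgb1a1 and Ager and the endothelial marker Cdh5 were above background on every array. So were the heart muscle genes Myh6, Myl7 and Actc1, so this criterion alone does not identify the tissue. Nothing in the labels says that arrays of a group came from separate cages or exposure days. The p-values rest on the spread between arrays, which holds differences of slide and scan day as well as of mouse.

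**Figure D1:**
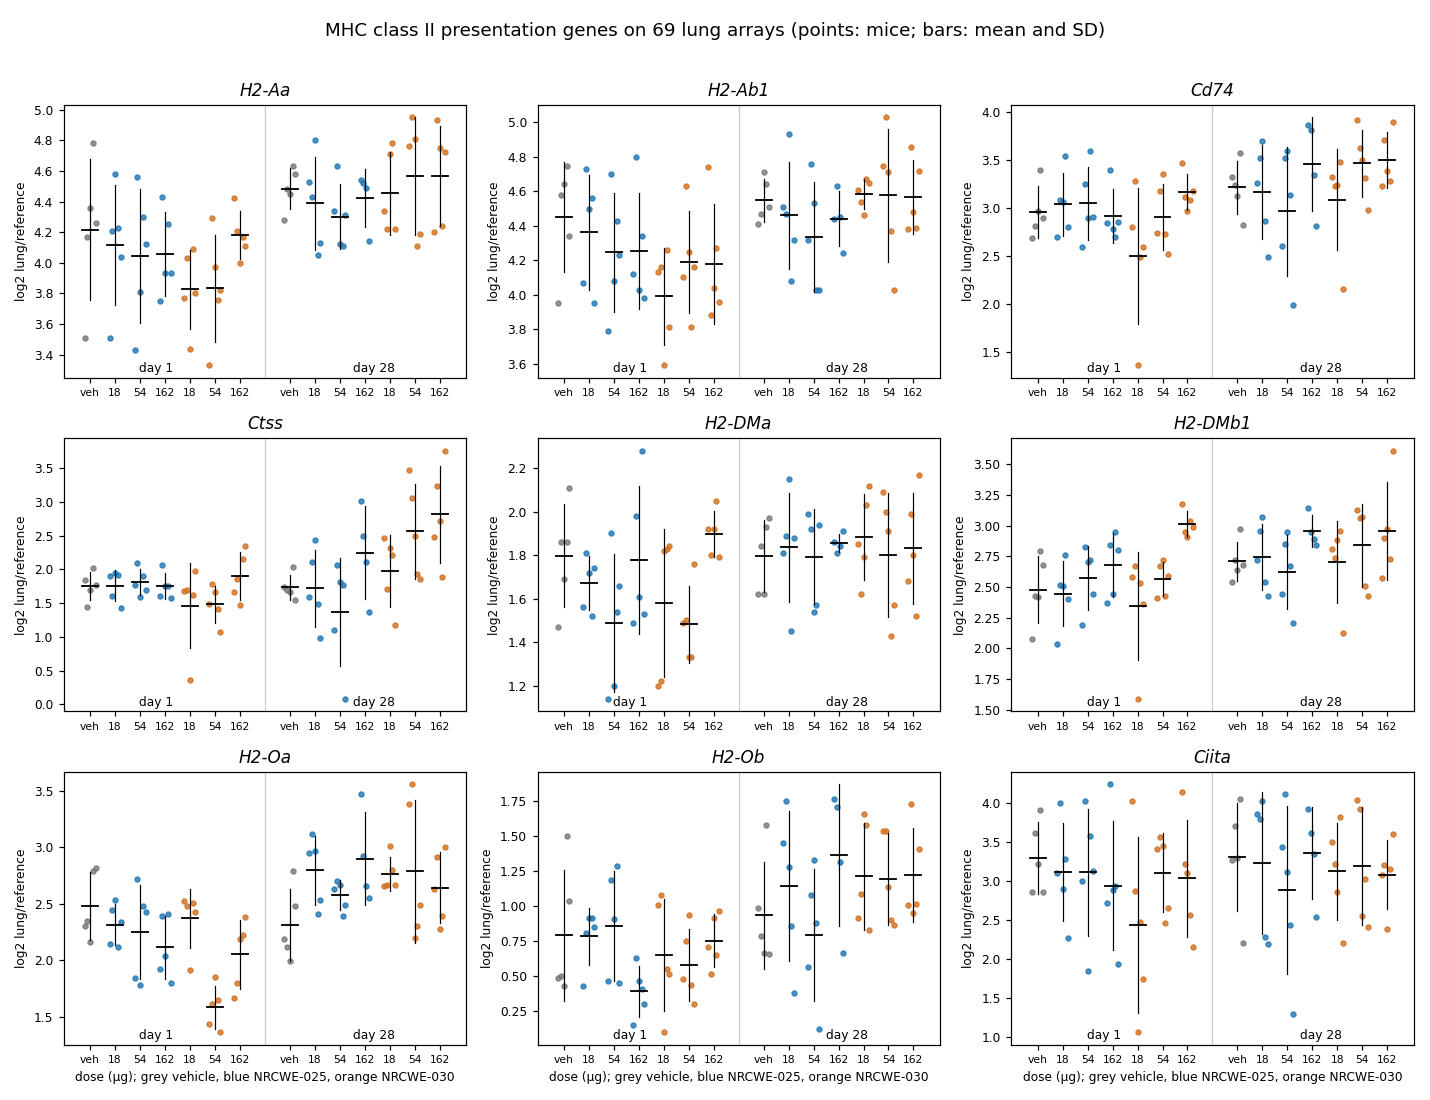
Log2 ratio of lung to reference (y axis) of the 9 measured genes in each of the 14 groups (x axis), with 1 point per mouse and the mean and SD as bars. H2-Oa sits lowest at 54 µg NRCWE-030 on day 1, and Ciita scatters widely in every group.

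Of the 9 measured genes, 1 changed against vehicle at any dose, day or NM: H2-Oa, the alpha chain of the H2-O modulator, fell on day 1 after 54 µg NRCWE-030. The other 8 genes were called in none of the 12 dose comparisons. Over all genes, the shares called for NRCWE-025 at 18, 54 and 162 µg were 0%, 0% and 0.209% on day 1, then 0.0589%, 0.0268% and 0.0161% on day 28. Those of NRCWE-030 were 0.00536%, 0.0804% and 1.69% on day 1 and 0.118%, 0.0536% and 0.0965% on day 28. In the test for any dose effect (a moderated F-test over vehicle, 18, 54 and 162 µg), 1 of 9 genes was called for NRCWE-030 on day 1, H2-Oa, with an adjusted p of 0.0176, beside 0.954% of all genes. There 3 of 9 had an unadjusted p under 0.05, beside 11.2% of all genes. None was called for NRCWE-030 on day 28 (0.102% of all genes called), for NRCWE-025 on day 1 (0.0214%) or for NRCWE-025 on day 28 (0.0268%). An unadjusted p under 0.05 was found in 1 of 9 genes for NRCWE-030 on day 28, beside 7.06% of all genes, in 0 of 9 for NRCWE-025 on day 1, beside 9.96%, and in 1 of 9 for NRCWE-025 on day 28, beside 5.77%. The median change over the 9 genes lay between -0.29, at 18 µg NRCWE-030 on day 1, and 0.25, at 162 µg NRCWE-030 on day 28, while that over all genes lay between -0.01 and 0.01. Loess centres each array, so the median over all genes is held close to no change by the processing. At the low end, the changes of all genes but H2-DMa were smaller in size without replicate 3, an array low in several genes.

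**Figure D2:**
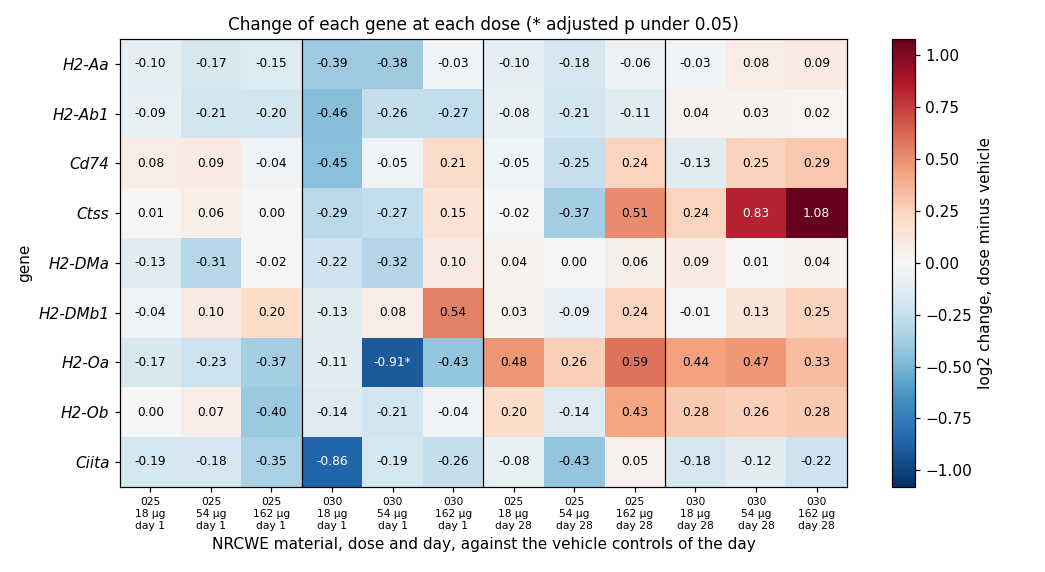
Log2 change (colour and number) of each gene (rows) at each NM, dose and day (columns) against the vehicle controls of the same day, with an asterisk for an adjusted p under 0.05. The single asterisk is at H2-Oa, NRCWE-030 54 µg, day 1; both NMs share the controls of a day.

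H2-Oa pairs with H2-Ob to hold back peptide exchange by H2-DM. Its log2 ratios in the 5 day 1 controls were 2.30, 2.35, 2.16, 2.79 and 2.82, and at 54 µg NRCWE-030 they were 1.43, 1.61, 1.85, 1.65 and 1.36. All 5 treated lungs were below all 5 control lungs. The mean was 1.58 ± 0.19 (SD, n = 5) against 2.48 ± 0.30 (SD, n = 5), a change of -0.91 ± 0.16 (SE), or 0.533 of the control level (adjusted p = 0.028). These values come from 1 probe of 1 spot per array, so no other probe of the gene could be compared. At this dose 0.0804% of all genes were called, and 0.0375%, or 7 genes, were called lower. At 18 µg the mean was 2.37 ± 0.26 (SD, n = 5), and at 162 µg 2.05 ± 0.31 (SD, n = 5), with changes of -0.11 and -0.43 ± 0.16 (SE), neither of them called (adjusted p = 0.216 at 162 µg), so the values did not follow the order of the doses. The 54 µg call was lost in 6 of 20 fits that each left out 1 array, the change staying between -0.99 and -0.82, and in 6 settings named in the closing section. Within the 3 scan days that held arrays of both groups, the treated lung was lower each time, 1 lung against 1, with differences of -0.93, -1.18 and -1.47. With scan day as a fixed block the change was -1.14 (adjusted p = 0.0282), and with slide as a fixed block -1.16 (adjusted p = 0.0147).

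Markers of B cells, in which H2-O is mainly found, had lower means than the controls at several day 1 doses, and so did H2-Oa. At 54 µg NRCWE-030 on day 1, 9 of 10 B cell markers had lower means than in the controls, none of them called, with the smallest p for Cd22 (-0.44 ± 0.10, SE, adjusted p = 0.0875) and Ms4a1, the CD20 antigen (-0.93 ± 0.21, SE, adjusted p = 0.0875). The mean of the 10 markers ranged from 0.32 to 0.67 there and from 0.48 to 1.03 in the controls, so the groups overlapped. The median change of the 10 was -0.23, with 4 at an unadjusted p under 0.05, beside 8.76% of all genes. Against the same controls, 9 of 10 also had lower means at 18 µg (median -0.08) and 162 µg (median -0.13) of NRCWE-030. The same held at 162 µg NRCWE-025 (median -0.25). In these comparisons, in that order, 1, 5 and 3 markers had an unadjusted p under 0.05, beside 7.3%, 12.9% and 12.3% of all genes. H2-Oa had lower means there too, with changes of -0.11, -0.43 and -0.37, none of them called. Pax5 was above background on 9 arrays, Blk on 28, Cr2 on 56 and Cd79a on 60, and the other 6 on all 69. Of 7 T cell markers, 5 had lower means and none was called. The part of cell numbers in the H2-Oa result was not tested, and in a piece of whole lung fewer cells of a type and less RNA per cell cannot be told apart.

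Across all 69 arrays H2-Oa had its highest r with the B cell markers among the 6 marker lists (Pearson r = 0.85, Spearman rho = 0.86, permutation p = 1e-05 for both, the smallest the 100000 permutations can give, adjusted p = 3e-05 over 54 gene and list pairs). Without the 2 arrays farthest from the median of the markers r was 0.85, and with group and scan day removed it was 0.84. H2-Ob, the beta chain, gave r = 0.82 and rho = 0.79 with the same markers (0.75 with group and scan day removed). Ctss was closest to the macrophage and monocyte markers (r = 0.71, rho = 0.69). Cd74 was closest to those of alveolar type 2 cells (r = 0.69, rho = 0.58), where r was 0.55 without the 2 farthest arrays. H2-DMa was closest to T cell markers (r = 0.65, rho = 0.65). All of these had a permutation p of 1e-05 and an adjusted p of 3e-05 for r, and no gene had an r above 0.28 with the neutrophil markers. The permutations shuffled all 69 arrays freely, although arrays share groups, slides and scan days, so these p-values can be too small. With group and scan day removed, Ctss gave 0.64 with macrophage and monocyte markers and 0.62 with dendritic cell markers. Cd74 then gave 0.56 with alveolar type 2 markers and 0.56 with dendritic cell markers, and H2-DMa 0.56 with T cell markers. No p-value was computed for the r with group and scan day removed. Differences between these correlations were not tested.

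**Figure D3:**
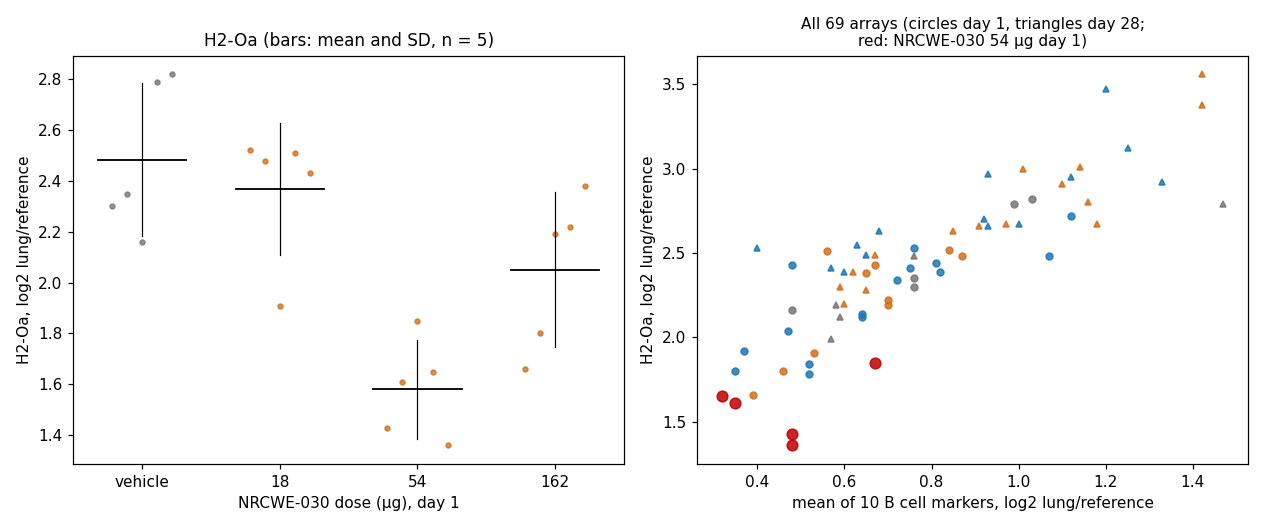
Left, H2-Oa (log2 ratio) in vehicle lungs and at each NRCWE-030 dose on day 1, with points for mice and bars for mean and SD. Right, H2-Oa against the mean of 10 B cell markers on all 69 arrays (grey vehicle, blue NRCWE-025, orange NRCWE-030): the 5 arrays of NRCWE-030 54 µg day 1, in red, hold the 4 lowest H2-Oa values, with marker means of 0.32 to 0.67.

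**Figure D4:**
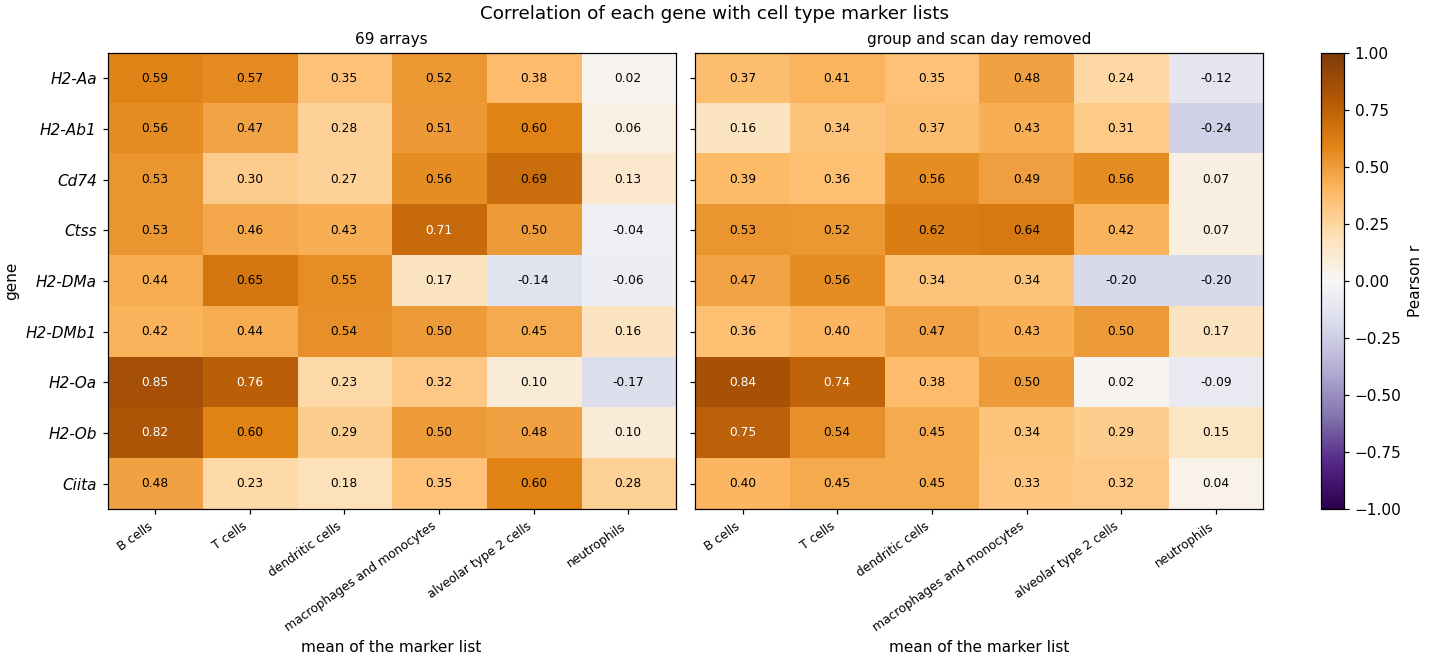
Pearson r over 69 arrays between each gene (rows) and the mean of each marker list (columns), as measured (left) and after group and scan day were removed (right). H2-Oa and H2-Ob have their highest r with B cell markers, 0.85 and 0.82, and Ctss its highest with macrophages and monocytes, 0.71.

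On day 28 the H2-Oa means of all 6 treated groups lay above that of the vehicle group, with changes of 0.26 to 0.59, whereas on day 1 all 6 lay below it, with changes of -0.91 to -0.11. None of the day 28 changes and 1 of those of day 1 was called. The 6 groups of a day share their controls, so these signs are not independent. The largest on day 28, at 162 µg NRCWE-025 (2.90 ± 0.41, SD, n = 4, against 2.31 ± 0.32, SD, n = 5), had an adjusted p of 0.484. Tested directly, the day 1 effect of 162 µg less its day 28 effect was -0.96 ± 0.29 (SE, adjusted p = 0.17) for NRCWE-025 and -0.76 ± 0.28 (SE, adjusted p = 0.423) for NRCWE-030. Neither was called, beside 0.0589% and 0.198% of all genes. With slide as a random block the NRCWE-025 difference was -1.06 and passed the threshold (adjusted p = 0.0477), the single class II gene called there, while 0 were called for NRCWE-030.

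H2-Ob was dim in the reference, and its log2 ratio ranged from 0.10 to 1.77 over the 69 arrays. Its lowest group mean was 0.39 ± 0.18 (SD, n = 5) at 162 µg NRCWE-025 on day 1, against 0.79 ± 0.47 (SD, n = 5) in the controls. Its highest was 1.37 ± 0.51 (SD, n = 4) at the same NM and dose on day 28, against 0.94 ± 0.38 (SD, n = 5). Both differences, -0.40 and 0.43, were not called, and the difference between the days was -0.83 ± 0.34 (SE, adjusted p = 0.343). H2-Ob correlated with its partner H2-Oa at r = 0.73 (rho = 0.71).

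H2-DMb1, the beta chain of the H2-DM peptide exchanger, had its highest mean at 162 µg NRCWE-030 on day 1. The 5 values were 3.18, 2.95, 2.91, 3.04 and 2.99, against 2.08, 2.43, 2.42, 2.79 and 2.68 in the controls. All 5 treated lungs were above all 5 control lungs, by a mean of 0.54 ± 0.16 (SE), 1.45-fold, but the gene was not called (adjusted p = 0.106) at a dose where 1.22% of all genes were called higher. It passed the threshold in 3 of the other settings, named in the closing section, and without replicate 3 of NRCWE-030 18 µg, which enters the same fit. With scan day as a fixed block the value was 0.37 (adjusted p = 0.581) and with slide as a fixed block 0.28 (adjusted p = 0.592). The 2 scan days that held both groups gave 0.39 and 0.30. The 2 probes of the gene gave 0.49 ± 0.15 and 0.58 ± 0.21 (SE), and correlated at r = 0.71 over the arrays. H2-DMb2, a closely similar neighbouring gene that these probes may also detect, had a probe of its own above background on 56 arrays.

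H2-DMa, the alpha chain of H2-DM, was called at no dose. At 162 µg NRCWE-030 on day 1 its mean was 1.90 ± 0.11 (SD, n = 5) against 1.80 ± 0.24 (SD, n = 5) in the controls. Its lowest mean, 1.48 ± 0.18 (SD, n = 5), was at 54 µg NRCWE-030 on day 1, a change of -0.32 ± 0.14 (SE, adjusted p = 0.518). On day 28 its 7 group means lay between 1.79 and 1.88. H2-DMa and H2-DMb1 encode the chains of 1 heterodimer, and they correlated at r = 0.40 (rho = 0.47), or 0.15 after group and scan day were removed.

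Ctss, the protease that trims the invariant chain, had the largest estimated increase of the 9 genes, on day 28 after NRCWE-030, and it was not called. The controls read 1.74, 1.69, 1.66, 2.04 and 1.55. At 54 µg the values were 3.47, 3.06, 2.49, 1.93 and 1.86, and at 162 µg 2.48, 3.23, 2.72, 1.89 and 3.76. Of 5 treated lungs, 3 at 54 µg and 4 at 162 µg were above every control, and the treated lungs spread more widely than the controls. The changes were 0.24 at 18 µg, 0.83 ± 0.33 (SE, adjusted p = 0.683) at 54 µg and 1.08 ± 0.33 (SE, adjusted p = 0.343) at 162 µg. In the 3 scan days shared with a control, 162 µg was higher by 0.73, 1.17 and 1.57, and 54 µg by 0.94, 1.40 and 1.72. With slide as a fixed block the 54 µg change was 1.35 and passed the threshold (adjusted p = 0.0494). At 162 µg on day 28, 9 of 10 macrophage and monocyte markers had higher means than in the controls, none called. An unadjusted p under 0.05 was found for 2 of the 10, beside 7.51% of all genes. The mean of the list ranged from 3.03 to 3.24 there and from 2.60 to 2.99 in the controls. At 54 µg 9 of 10 were higher too, 1 of the 10 at an unadjusted p under 0.05, beside 6.52% of all genes. The list mean there, 2.80 to 3.33, overlapped the controls. The part of these markers in the Ctss values was not tested.

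Ctss also had the smallest p for a difference between the NMs, and it was not called. On day 28 a joint F-test of the 3 dose-wise differences between NRCWE-030 and NRCWE-025 gave an unadjusted p of 0.000867 and an adjusted p of 0.178, with 0.241% of all genes called. The difference was 1.19 ± 0.31 (SE, adjusted p = 0.112) at 54 µg, where the NRCWE-025 lungs read 1.1, 2.07, 1.82, 1.77 and 0.08. The value of 0.08 comes from replicate 5, an array that was low in several genes, and without it the change from control at that dose was -0.05 in place of -0.37. On day 1 no gene of the group was called either (0.155% of all genes called), and the smallest p was that of H2-Oa (0.0142, adjusted 0.475).

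Cd74, the invariant chain, had group means between 2.50 ± 0.71 (SD, n = 5), at 18 µg NRCWE-030 on day 1, and 3.50 ± 0.29 (SD, n = 5), at 162 µg NRCWE-030 on day 28. The day 1 controls averaged 2.95 ± 0.27 (SD, n = 5) and those of day 28 3.21 ± 0.27 (SD, n = 5). Every dose comparison was uncalled, and all changes lay between -0.45 and 0.29. The low mean rests on 1 lung, replicate 3, at 1.36: without it the change from control was -0.16 in place of -0.45.

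H2-Aa and H2-Ab1, the alpha and beta chains of H2-A, were called at no dose. H2-Aa group means ran from 3.83, at 18 and at 54 µg NRCWE-030 on day 1, to 4.57 ± 0.33 (SD, n = 5), at 162 µg NRCWE-030 on day 28. H2-Ab1 ran from 3.99 ± 0.28 (SD, n = 5), at 18 µg NRCWE-030 on day 1, to 4.59 ± 0.09 (SD, n = 5), at the same NM and dose on day 28. The most extreme change of either gene was -0.46 ± 0.18 (SE, adjusted p = 0.619), for H2-Ab1 at 18 µg NRCWE-030 on day 1. The 2 chains correlated at r = 0.82 (rho = 0.83), or 0.65 with group and scan day removed. Probes of 1 gene correlated with each other at r = 0.81 for H2-Aa and between 0.64 and 0.82 for the 3 probes of H2-Ab1. At that dose and day the H2-Ab1 probes gave changes of -0.21, -0.32 and -0.47, all uncalled over the 40831 probes tested.

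Ciita, the transactivator, was called in no comparison and had the highest residual SD of the 9 genes. Over the 69 arrays it ranged from 1.06 to 4.24, a 9.04-fold range, and its residual SD within groups was 0.76, above that of 99.5% of all genes (median over all genes, 0.17). The gene had a single probe, above background in the reference on 61 arrays. Control means were 3.29 ± 0.46 (SD, n = 5) on day 1 and 3.31 ± 0.69 (SD, n = 5) on day 28. Its most extreme change, -0.86 at 18 µg NRCWE-030 on day 1, became -0.52 without replicate 3. The scan day of the array went with most of this spread. It accounted for 81.1% of the within-group sum of squares of Ciita, a share above that of 99.4% of genes (median over all genes, 37%). Scan days are numbered by first appearance in the list of arrays, which need not be their order in time. On scan day 5 the 8 arrays averaged 3.94 (range 3.56 to 4.14), and on scan day 11 the 6 arrays averaged 1.97 (range 1.29 to 2.54). The same share was 72.3% for H2-Ab1, 60.2% for Cd74 and 56.7% for H2-Aa, and 21.7% for H2-Oa. As a description, with the group removed, the share of spots above background on an array correlated at r = 0.75 with Cd74, 0.70 with H2-Ob, 0.68 with Ciita and -0.08 with H2-DMa, and its part in the values was not tested.

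**Figure D5:**
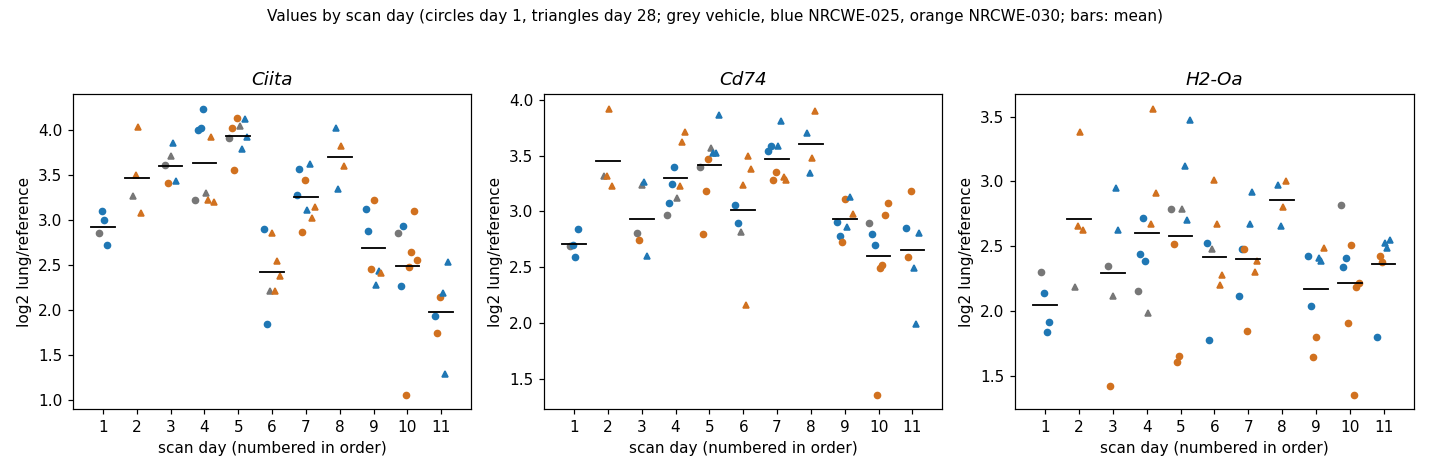
Log2 ratio of Ciita, Cd74 and H2-Oa (y axis) by scan day of the array (x axis, numbered by first appearance in the list of arrays). Circles mark day 1, triangles day 28 and a bar the mean of each scan day. Ciita means fall between 1.97 and 3.94 by scan day, with little overlap between several of them; H2-Oa is spread within each scan day.

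Over the 69 arrays, r between the 36 pairs of genes ranged from 0.14 to 0.82, with a median of 0.57. This is a description: arrays share groups and scan days, and the same values for other gene pairs were not computed. The highest were 0.82 for H2-Aa with H2-Ab1 and for H2-DMb1 with Cd74, and 0.81 for Cd74 with Ctss. With group and scan day removed, H2-DMb1 with Cd74 gave 0.88 and Cd74 with Ctss 0.87, while H2-Ab1 with H2-Ob went from 0.59 to 0.04. The lowest were those of H2-DMa, whose r was 0.14 with Cd74, 0.17 with Ciita and 0.23 with H2-Ob. Outside the group, genes whose pattern over 69 arrays was among the most like the mean of H2-Aa, H2-Ab1 and Cd74 were Marchf1, the ubiquitin ligase that takes class II molecules off the cell surface (r = 0.82, or 0.78 with group removed), Trim12a (0.78), Ly86 (0.75), Trim12c (0.75), Slamf6, Ipcef1 and Gpr160 (0.74 each), and Tent5a and Magix (0.73 each). Among all genes H2-DMb1 ranked 5 by that measure, H2-Ob 7, Ctss 18, Ciita 52, H2-Oa 175 and H2-DMa 1275.

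The rest of the pathway gave few calls. None of the 16 tested class II accessory genes was called at any dose; the smallest p at 162 µg NRCWE-030 on day 1 were those of the costimulators Cd80 (0.31 ± 0.08, SE, adjusted p = 0.0717; above background on 27 arrays) and Cd86 (0.26 ± 0.10, SE, adjusted p = 0.239). At 162 µg NRCWE-030 on day 28, 15 of the 16 had higher means than in the controls, led by Ctsh, a lysosomal protease (0.35 ± 0.11, SE, adjusted p = 0.343), and Cst3, an inhibitor of cysteine cathepsins (0.34 ± 0.12, SE, adjusted p = 0.481). There 49.3% of all genes had higher means, and 6 of the 16 had an unadjusted p under 0.05, beside 7.51% of all genes. None of 9 class II transcription factors and cofactors was called; at 162 µg NRCWE-030 on day 1 the smallest p were those of Creb1 (0.20 ± 0.08, SE) and Rfx5 (0.18 ± 0.07, SE), which bind the X box. None of 11 genes of the interferon gamma axis was called, with Gbp2 at 0.59 ± 0.17 (SE, adjusted p = 0.0872) in the same comparison. Of 14 class I presentation genes, 1 was called: Psmb8, a catalytic subunit of the immunoproteasome, rose by 0.74 ± 0.19 (SE, adjusted p = 0.0486) at 162 µg NRCWE-030 on day 1, where 1.69% of all genes were called. All 14 had higher means than in the controls there, and also at 54 and 162 µg NRCWE-025 on day 1, against the same controls, with medians of 0.12 and 0.24 and none called. In these comparisons, in that order, 51.3%, 47.3% and 50% of all genes had higher means. An unadjusted p under 0.05 was found for 6, 1 and 2 of the 14, beside 12.9%, 6.53% and 12.3% of all genes. In vehicle lungs all 14 were likewise higher on day 28 than on day 1 (median 0.29). Of these, 5 had an unadjusted p under 0.05, beside 8.51% of all genes, and none was called.

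Among the cell type markers, those of B cells included, only neutrophil genes gave calls. Of 6 tested, Csf3r, the G-CSF receptor, rose by 1.25 ± 0.20 (SE, adjusted p = 0.00262) at 162 µg NRCWE-030 on day 1. There 1.69% of all genes were called, and 4 of the 6 markers had higher means than in the controls (median change 0.32). An unadjusted p under 0.05 was found for 2 of the 6, beside 12.9% of all genes. Mmp9, a gelatinase of neutrophil granules, fell by 1.11 at 162 µg (-1.11 ± 0.16, SE, adjusted p = 0.00289) and by 0.96 at 54 µg (-0.96 ± 0.16, SE, adjusted p = 0.0168) of NRCWE-030 on day 28. At those doses 0.0965% (162 µg) and 0.0536% (54 µg) of all genes were called. For Csf3r and Mmp9 the effect of 162 µg differed between the days (1.55, adjusted p = 0.0418, and 1.46, adjusted p = 0.0126), beside 0.198% of all genes called. The controls themselves differed: the mean of the 6 neutrophil markers was 2.81 ± 0.54 (SD, n = 5) in the day 28 vehicle lungs and 2.24 ± 0.23 (SD, n = 5) in those of day 1. All 6 markers were higher on day 28, 4 of them at an unadjusted p under 0.05, beside 8.51% of all genes, and none was called. In each of the 6 treated groups of day 28 all 6 markers had lower means than in that vehicle group, which enters both the Mmp9 changes and the day differences. No marker of dendritic cells (10 tested), macrophages and monocytes (10), T cells (7), alveolar type 2 cells (6), other lung cells (4), endothelium (4) or heart muscle (4) was called. Itgax, the integrin of dendritic cells and alveolar macrophages, came closest, with 0.54 ± 0.14 (SE, adjusted p = 0.0611) at 162 µg NRCWE-030 on day 1. Heart muscle genes, which pieces of lung can carry, gave wide errors: Myl7 was -1.19 ± 1.22 (SE) in the same comparison.

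In vehicle lungs no class II gene was called between the days. Between day 28 and day 1 the differences ran from -0.17 ± 0.20 (SE) for H2-Oa to 0.27 ± 0.19 (SE) for H2-Aa, and the smallest adjusted p was 0.733. Of the 9 genes, 6 had higher means on day 28, 0 had an unadjusted p under 0.05, beside 8.51% of all genes, and 0.0375% of all genes were called. Day, age and whatever handling went with the day cannot be told apart in that comparison.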

How the data were processed

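Lung RNA (Cy5) and Universal Mouse Reference RNA (Cy3) were hybridised to 69 two-colour Agilent arrays of 45018 spots on 19 slides, scanned on 11 days, with no dye swap. The scanner files, deposited by the authors from Agilent Feature Extraction 11.0.1.1, hold median spot and background intensity, flags of 0 or 1 (other) and a log10 ratio of red over green, background-subtracted and dye-normalized by the software. The deposited series matrix holds the authors' log2 ratios after LOWESS within each array; it followed the uncorrected loess values (median r = 0.9964 over the arrays, lowest 0.9218).

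Here the intensity values were corrected by normexp (offset 50) after backgrounds marked as outliers had been replaced by the array's median, and normalized by loess. Spots were summarised by median to 41174 probes, and probes to genes through their accession, matching 27484 probes (66.8%) to 18753 symbols, of which 18660 had values on all arrays needed. limma 3.58.1 (R 4.3.3) was fitted per NM and day with 4 groups, and over all 14 groups for differences between NMs and days, with Benjamini-Hochberg adjustment over all genes. Scripts were tested on simulated data. No spot was saturated in Cy5, and the number of arrays limits the precision. Genes named are the 10 members, called genes of the pathway and marker lists or else the 2 with the smallest p, and the 10 genes most correlated with H2-Aa, H2-Ab1 and Cd74 (H2-Eb1, also in that rule, had no probe); 2 genes that the rule names are not reported here. The members and lists were chosen with earlier results of these data known. Alternatives were other background corrections, deposited ratios, scaling between arrays, a filter on dim probes, other ways of combining probes, slide and scan day blocks, other fits, and leaving out each array; the share of spots above background as a covariate was added after seeing the data.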

Additional observations from a re-analysis of the deposited data

Results flagged for a closer look

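In 8 of 126 combinations of gene and group, 1 lung lay far from the other lungs of its group by Dixon's gap ratio, a criterion that chance alone meets in about 5% of groups. Replicate 3 of NRCWE-030 18 µg on day 1 accounts for 3 of them: H2-DMb1 at 1.59 (nearest lung 2.36), H2-Oa at 1.91 (nearest 2.43) and Ctss at 0.36 (nearest 1.62). The same array was the lowest of all 69 for H2-DMb1, H2-Ab1 (3.59), Cd74 (1.36), Ciita (1.06) and H2-Ob (0.10) and for the mean of the alveolar type 2 markers (3.23, median 4.19), while H2-DMa, at 1.82, was at the middle. Replicate 5 of NRCWE-030 18 µg on day 28 was low in H2-DMb1 (2.13, nearest 2.74) and Cd74 (2.16, nearest 3.23); on this array the values used here correlated with the deposited series matrix at r = 0.926 over probes, the lowest of all 69 arrays (next lowest 0.9784). Single genes were far out in H2-Aa for replicate 4 of NRCWE-025 162 µg on day 28 (4.14, nearest 4.49), in H2-Ob for replicate 1 of NRCWE-025 18 µg on day 1 (0.43, nearest 0.81) and in Cd74 for replicate 2 of NRCWE-025 162 µg on day 1, the only high one (3.40, nearest 2.85).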

How the results depend on the processing

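No setting reversed a called value. For H2-Oa at 54 µg NRCWE-030 on day 1, the number of the 9 genes called went from 1 to 0 with each probe tested on its own, no background correction, normexp on the backgrounds as deposited, scaling between arrays, the scanner log ratio and the series matrix values. The change stayed between -0.91 and -0.84 there (adjusted p from 0.0547 to 0.146). With each probe tested on its own, the change was the same, -0.91 ± 0.16 (SE), and the adjustment ran over 40831 probes in place of 18660 genes. For the other settings the cause was not tested. Leaving out single arrays gave 0 to 1 genes called at that dose; the call was lost without replicates 1, 2 or 5 of the dose or 2, 4 or 5 of the vehicle. In the dose F-test for NRCWE-030 on day 1 the count of 1 became 0 with no background correction, the ordinary F-test, scaling or the series matrix values, and 2 with the scanner log ratio or slide as a random block (H2-DMb1 added) or as a fixed block (H2-Aa added), and it was 0 to 2 with single arrays left out. At 162 µg NRCWE-030 on day 1 the count of 0 became 1, H2-DMb1, with scaling (0.82), the scanner log ratio (0.52) and the covariate (0.58), and was 0 to 1 with single arrays left out. It became 1 at 54 µg NRCWE-030 on day 28 with slide as a fixed block (Ctss), and 1, H2-Oa, for the difference between days for NRCWE-025 with slide as a random block. All other counts of genes called were 0 in every setting run. Dim reference signal limits H2-Ob, 1 H2-Aa probe and, on some arrays, Ciita. No paired analysis was possible because the labels number no replicates, so numbers could not pair lungs across groups; slide and scan day, which held several groups, were fitted as blocks instead.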
